A study of Mus musculus with 8 samples.

Results

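Nodal, its coreceptor Tdgf1, the related ligand Gdf3 and the Nodal antagonists Lefty1 and Lefty2, the activin subunit gene Inhba, the BMP ligands Bmp2, Bmp4 and Bmp7 and the BMP target Id1 were followed through a mouse ES cell model of the testis. These 10 genes were chosen by name from the 46078 gene identifiers counted, and all 10 had a row in every library. RNA-seq read counts per gene were available for 4 groups of 2 libraries each, described by the submitters as biological duplicates. The questions set by the design were what changed when an ES cell line received the testis factor Sf1, when that line was turned into testicular somatic cell-like cells, and when ES cells became germ cell-like cells inside an organoid.

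All lines were C57BL/6 and labelled XY. The tcESC line came from male embryos carrying tesco-cfp, a reporter in which the testis enhancer of Sox9 drives CFP, and was kept in 2i/LIF medium without serum or feeders. The tc;Sf1ESC line (XY;tesco-cfp;Sf1) was a tcESC clone selected with G418 after introduction of an Sf1 expression plasmid, so this group stands for 1 clone. SCLCs were CFP-positive cells sorted on day 12 of differentiation of tc;Sf1ESCs. Their culture began with the Wnt activator CHIR99021 and the retinoic acid receptor agonist TTNPB and went on with CHIR99021, FGF9 and BMP7 protein, so a member of the family studied here was supplied from outside. CFP was the only criterion of that sort. The tod-PGCLC group (XY;Prdm1-gfp) was sorted on day 6 from testicular organoids for GFP and a surface marker; it descended from a different ES line, by way of EpiLCs made with bFGF and activin A. In the tod-PGCLC comparisons cell type and ES line therefore cannot be told apart.

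Nodal and activin bind activin receptors and signal through Smad2 and Smad3. Nodal needs the coreceptor Tdgf1 (Cripto) to do so, induces its own inhibitors Lefty1 and Lefty2, and is known for keeping epiblast cells competent for mesoderm and for acting in the early gonad. BMPs signal through Smad1, Smad5 and Smad9, switch on the Id genes in most cells, and are best known in this setting for specifying primordial germ cells from the epiblast.

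Library totals ran from 25411033 to 30680191 counts, at which 3 counts correspond to 0.0978 to 0.118 CPM, counts scaled to a common library total. The labels were compared with marker levels first. The summed level of 8 pluripotency genes was 5762 to 6493 CPM in the ES lines, 1002 and 1218 CPM in SCLCs and 4395 and 4576 CPM in tod-PGCLCs. Sertoli cell markers summed to 518 and 532 CPM over 9 genes in SCLCs and to 14.3 to 20.1 CPM in ES cells. Gata4, which extraembryonic endoderm also makes, gave 415 and 431 CPM of the SCLC sums, followed by Vnn1 (41.2 and 61.8 CPM), Dmrt1 (35.7 and 13.3 CPM), Nr5a1 (12.9 and 18.4 CPM) and Sox9 (7.77 and 4.47 CPM). Wt1, Cldn11, Ptgds and Dhh each stayed under 3 CPM there. All 7 Sertoli markers tested were called higher in SCLC than in tc;Sf1ESC, beside 24.1% of all genes tested. Against tcESC 6 of the 7 were, beside 24.3%. Sox9 and Cldn11 were among those tested only for their SCLC reads. Dhh, with 11 and 24 counts in tc;Sf1ESC and 5 and 1 in SCLC, was not tested. These counts of calls therefore do not stand for the whole list. SCLCs carried still more RNA of extraembryonic endoderm markers, with 1739 and 3186 CPM over 10 genes against 9.09 to 14.3 CPM in ES cells, and 1070 and 1120 CPM of 8 interstitial and mesenchymal markers against 13.4 to 24.1 CPM. Cubn gave 1056 and 2107 CPM of the endoderm sums and Pdgfra 735 and 872 CPM of the mesenchymal sums. By these levels the SCLC libraries held markers of several cell types beside those of Sertoli cells. The endogenous and introduced Sf1 messages share the gene Nr5a1, whose counts were 1 and 0 in tcESC, 52 and 30 in tc;Sf1ESC, 341 and 535 in SCLC and 6 and 5 in tod-PGCLC. The ES lines differed in more than the transgene: 4 Y-linked genes summed to 34.0 and 34.2 CPM in tcESC, to 163 and 169 CPM in its clone and to 3.84 and 4.36 CPM in tod-PGCLC, and the X-linked Kdm5c stood at 4.43 and 4.88 CPM in tcESC but at 261 and 262 CPM in the clone. The Y-linked level of tod-PGCLC was low for its XY label, and the Y-linked and Kdm5c levels of tcESC were unlike those of its clone. Whether the lines differ in sex or origin from their labels was not tested. The group names therefore stand here for the libraries labelled so. What these differences contribute to any comparison below was not tested.

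The sequences next to the transcription starts of a pair that shared an order of groups and of a gene with another order are shown here: the ligand Nodal with its coreceptor Tdgf1, and Bmp4. RefSeq promoters of the GRCm38.p6 build were at hand for 4 of the 10 genes, Nodal, Tdgf1, Inhba and Bmp4, and each run below is the 250 bases before the start, 5′ to 3′ on the strand of the gene. The places are chr10:61417722-61417971 on the plus strand for Nodal, chr9:110946159-110946408 on the minus strand for Tdgf1 and chr14:46390670-46390919 on the minus strand for Bmp4, and capitals mark the letters CAGAC, a Smad-binding motif read on the opposite strand as GTCTG.
Nodal: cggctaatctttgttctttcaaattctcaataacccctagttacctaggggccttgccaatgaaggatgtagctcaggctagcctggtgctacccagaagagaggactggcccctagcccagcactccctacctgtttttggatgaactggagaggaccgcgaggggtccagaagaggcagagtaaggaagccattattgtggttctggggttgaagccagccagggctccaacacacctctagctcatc
Tdgf1: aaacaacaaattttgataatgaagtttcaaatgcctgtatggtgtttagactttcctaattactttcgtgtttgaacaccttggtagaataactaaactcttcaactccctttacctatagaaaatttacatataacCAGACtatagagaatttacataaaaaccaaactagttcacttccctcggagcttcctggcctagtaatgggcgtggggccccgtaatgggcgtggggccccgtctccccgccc
Bmp4: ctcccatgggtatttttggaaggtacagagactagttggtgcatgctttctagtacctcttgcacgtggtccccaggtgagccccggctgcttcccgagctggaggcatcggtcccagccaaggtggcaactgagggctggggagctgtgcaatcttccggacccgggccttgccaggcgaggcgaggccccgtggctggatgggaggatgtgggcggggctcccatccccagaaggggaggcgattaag
The Bmp4 stretch held 63.2% G and C, the Nodal stretch 53.2% and the Tdgf1 stretch 42.0%. Windows of 300 bases, from 250 before to 50 after the start, were searched for the Smad motif GTCTG, for the BMP-Smad motif GGCGCC and for the Foxh1 motif AATCCACA, each on both strands. The Tdgf1 window held a single CAGAC, and no other match occurred in the windows of the 4 genes. Among 32851 mouse promoters of this length, 49.6% held GTCTG on either strand, 11.9% held GGCGCC and 0.855% held AATCCACA on either strand.

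Nodal, Gdf3 and Tdgf1 were abundant in both ES lines and low in SCLCs, whereas Bmp2 and Id1 were low in ES cells and stood highest in SCLCs. The tod-PGCLCs kept Nodal, Gdf3 and Tdgf1 at moderate levels, had more Lefty1 and Bmp4 than any other group and carried both Lefty genes at similar CPM. The clone tc;Sf1ESC differed from tcESC most in the antagonists: Lefty1 was 5.54-fold and Lefty2 7.47-fold higher while Nodal itself was not called. In the fits below, a gene is called when it differs by more than 2-fold with an adjusted p under 0.05; p values are from the quasi-likelihood test of edgeR, adjusted by the method of Benjamini and Hochberg across every gene tested. Errors of log2 fold changes are standard errors, and those of levels are SDs over 2 libraries. In RNA from whole sorted populations, fewer cells of a type and less RNA per cell cannot be told apart.

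**Figure D1:**
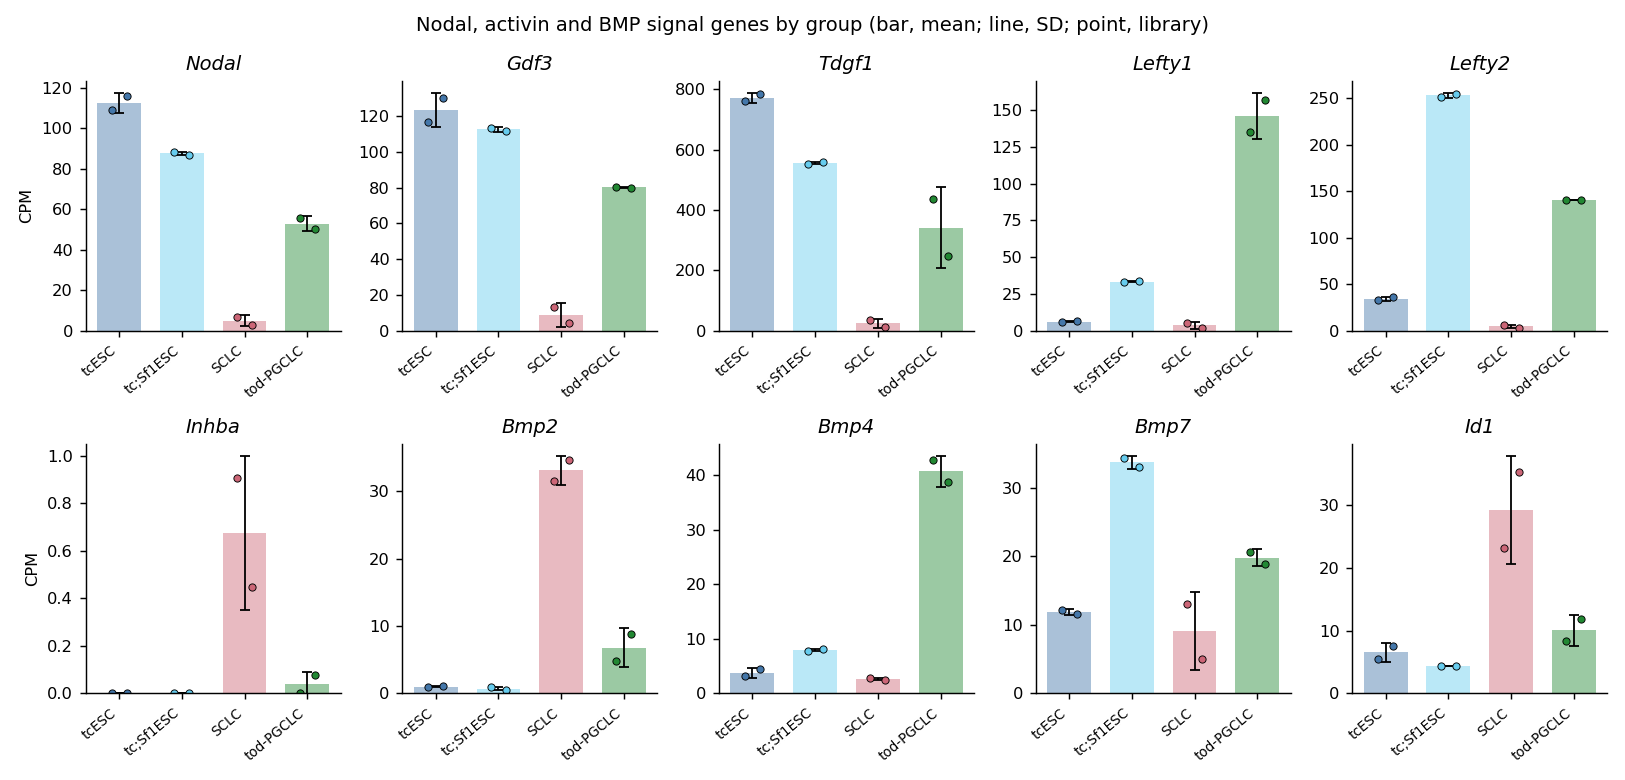
Expression of the 10 genes in CPM (vertical axes, each with its own scale starting at 0) in the 4 groups; bars are means of 2 libraries, lines the SD and points the libraries. Nodal, Gdf3 and Tdgf1 are lowest in SCLC, Bmp2 and Id1 are highest there, and Lefty1 and Bmp4 are highest in tod-PGCLC.

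Nodal (ENSMUSG00000037171, chr10:61417972-61425338, plus strand, GRCm38), the ligand that patterns the early embryo, measured 109 and 116 CPM in tcESC, 88.2 and 87.0 CPM in tc;Sf1ESC, 6.79 and 2.85 CPM in SCLC and 55.6 and 50.2 CPM in tod-PGCLC. The 4 groups did not overlap, and the order was tcESC, tc;Sf1ESC, tod-PGCLC, SCLC. Nodal fell 17.7-fold from tc;Sf1ESC to SCLC (log2 fold change -4.15 ± 0.293, edgeR adjusted p = 1.51e-05). The step between the ES lines was not called (log2 fold change -0.35 ± 0.234, edgeR adjusted p = 0.298), and neither was that from tc;Sf1ESC to tod-PGCLC, where the log2 fold change of -0.81 stayed under the fold limit. Against tcESC, Nodal was 2.24-fold lower in tod-PGCLC (edgeR adjusted p = 0.00171).

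Gdf3 (ENSMUSG00000030117, chr6:122605403-122610087, minus strand), a ligand of the same receptors expressed in pluripotent cells, measured 117 and 130.3 CPM in tcESC, 114 and 112 CPM in tc;Sf1ESC, 13.3 and 4.12 CPM in SCLC and 80.4 and 80.0 CPM in tod-PGCLC. SCLC lay apart from all other groups, and it was the only group that differed by a call. The fall from tc;Sf1ESC was 12.6-fold (log2 fold change -3.66 ± 0.410, edgeR adjusted p = 0.000150), and its size depended on the SCLC library: the log2 fold change was -4.70 without SCLC replicate 1 and -3.04 without SCLC replicate 2. Between neighbouring groups in the order tcESC, tc;Sf1ESC and tod-PGCLC, the log2 fold changes were -0.12 ± 0.345 and -0.58 ± 0.313, neither called. Tested genes of chromosome 6, where Gdf3 lies, had a median log2 fold change of -0.31 between the ES lines and of -0.29 between tod-PGCLC and tcESC. The log2 fold changes of Gdf3 in these comparisons were -0.12 and -0.70.

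Tdgf1 (ENSMUSG00000032494, chr9:110939603-110946158, minus strand), the coreceptor that lets Nodal reach its receptors, had the highest level per length of the 10 genes in every group but SCLC. Its level was 761 and 784 CPM in tcESC, 553 and 559 CPM in tc;Sf1ESC, 33.6 and 13.3 CPM in SCLC and 437 and 247 CPM in tod-PGCLC. The ES libraries were high and the SCLC libraries low, without overlap. The tod-PGCLC libraries lay between them, with a wide gap from each other. From tc;Sf1ESC to SCLC, Tdgf1 fell 23.0-fold (log2 fold change -4.52 ± 0.372, edgeR adjusted p = 3.13e-05). In tod-PGCLC it was 2.38-fold lower than in tcESC (log2 fold change -1.25 ± 0.351, edgeR adjusted p = 0.0131), a call that was lost without tod-PGCLC replicate 2, where the log2 fold change was -0.89 and the adjusted p 0.101, and also without either tcESC library (adjusted p 0.0511 and 0.0567). Of its exon sequence, 8.86% of the 50-base windows also occur in the copy Tdgf1-ps1, which was counted at 106 and 130 reads in tcESC against 19343 and 24049 for Tdgf1, and at 353 and 202 reads in tod-PGCLC against 12034 and 6555. In tc;Sf1ESC it was counted at 74 and 90 reads, and in SCLC at 5 and 1.

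The Lefty genes encode secreted antagonists that hold Nodal away from its receptors and are themselves Nodal targets. They lie on chromosome 1 in the same orientation, Lefty2 at chr1:180893108-180899103 (ENSMUSG00000066652) and Lefty1 at chr1:180935022-180938400 (ENSMUSG00000038793), 35918 bases apart. They share 306 windows of 50 bases, 17.9% of those of Lefty1 and 12.0% of those of Lefty2, so reads from these stretches may have gone uncounted or to the wrong copy.

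Lefty2 measured 32.6 and 35.8 CPM in tcESC, 251 and 255 CPM in tc;Sf1ESC, 5.66 and 3.20 CPM in SCLC and 140.2 and 140.6 CPM in tod-PGCLC. No groups overlapped, and the clone stood highest. The rise from tcESC to tc;Sf1ESC was 7.47-fold (log2 fold change 2.90 ± 0.171, edgeR adjusted p = 9.56e-05), and the fall from tc;Sf1ESC to SCLC was 55.6-fold (log2 fold change -5.80 ± 0.208, edgeR adjusted p = 7.69e-07). In tod-PGCLC, Lefty2 was 3.90-fold higher than in tcESC (edgeR adjusted p = 1.05e-05). Against the clone it was lower by 0.94 on the log2 scale, which stayed under the fold limit.

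Lefty1 followed another order. It measured 5.67 and 6.39 CPM in tcESC, 32.9 and 33.4 CPM in tc;Sf1ESC, 5.36 and 1.72 CPM in SCLC and 135 and 157 CPM in tod-PGCLC. The tod-PGCLC libraries were far above all others, and the SCLC libraries lay under those of tcESC, replicate 1 narrowly and replicate 2 several-fold. Lefty1 was 22.9-fold higher in tod-PGCLC than in tcESC (log2 fold change 4.52 ± 0.321, edgeR adjusted p = 6.89e-06) and 5.54-fold higher in tc;Sf1ESC than in tcESC (log2 fold change 2.47 ± 0.382, edgeR adjusted p = 0.00317). From tc;Sf1ESC to SCLC it fell 9.13-fold (edgeR adjusted p = 0.000284). The difference of SCLC from tcESC was not called (log2 fold change -0.72 ± 0.418, edgeR adjusted p = 0.158), although it reached -1.73 and was called without SCLC replicate 1, when the spread came from the ES cell pairs alone.

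The balance of antagonist to ligand differed between the groups as well. The summed CPM of both Lefty genes was 0.350 and 0.364 times that of Nodal in tcESC, 3.22 and 3.32 times in tc;Sf1ESC, 1.62 and 1.72 times in SCLC and 4.94 and 5.93 times in tod-PGCLC. In the clone both Lefty genes were called higher and Nodal was not called, whereas in SCLCs all 3 genes were low. Lefty2 reads outnumbered Lefty1 reads 5.61 to 5.75 times in tcESC and 7.64 to 7.65 times in the clone. In SCLC the ratio was 1.06 and 1.86, and in tod-PGCLC 1.04 and 0.895.

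Inhba (ENSMUSG00000041324, chr13:16011851-16031621, plus strand) encodes the subunit of activin A, the protein that was added to the EpiLC medium of the germ cell route. Its counts were 0 in all 4 ES libraries, 24 and 13 in SCLC and 0 and 2 in tod-PGCLC. SCLCs were the only group above 3 counts, at 0.906 and 0.447 CPM. Inhba missed the limit of a mean of 10 counts and was not tested in the fits. Set against 3 counts per library, its CPM in SCLC was at least 6.03-fold higher than in tc;Sf1ESC and at least 6.27-fold higher than in tcESC. With SCLC replicate 2 alone these bounds were 3.99 and 4.14. Against the 2 counts of tod-PGCLC, the ratio of summed counts per total was 18.0 with an exact 95% interval of 4.64 to 154, which covers counting error only, and the ratio was 12.1 (2.74 to 110.3) without SCLC replicate 1. Transcripts at this level are close to the limit of detection, and no level of activin A protein follows from them.

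Bmp2 (ENSMUSG00000027358, chr2:133552159-133562885, plus strand), a BMP made by many endoderm and mesenchymal cells, measured 0.905 and 1.01 CPM in tcESC, 0.887 and 0.506 CPM in tc;Sf1ESC, 31.6 and 34.6 CPM in SCLC and 4.72 and 8.81 CPM in tod-PGCLC. The ES lines were both low and the SCLC libraries both high, with tod-PGCLC between. Bmp2 rose 49.3-fold from tc;Sf1ESC to SCLC (log2 fold change 5.62 ± 0.222, edgeR adjusted p = 1.15e-06). It was 6.66-fold higher in tod-PGCLC than in tcESC (edgeR adjusted p = 0.000159) and 5.37-fold higher in SCLC than in tod-PGCLC (edgeR adjusted p = 5.19e-05). The ES lines did not differ by a call (log2 fold change -0.46 ± 0.293, edgeR adjusted p = 0.275).

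Bmp4 (ENSMUSG00000021835, chr14:46383520-46390669, minus strand), the BMP that instructs epiblast cells to become germ cells, measured 3.15 and 4.37 CPM in tcESC, 7.75 and 8.06 CPM in tc;Sf1ESC, 2.72 and 2.51 CPM in SCLC and 42.8 and 38.8 CPM in tod-PGCLC. Only the germ cell-like group was high, and the other 3 groups were all under 10 CPM. In tod-PGCLC, Bmp4 was 10.3-fold above tcESC (log2 fold change 3.36 ± 0.166, edgeR adjusted p = 1.06e-06). SCLCs lay 14.2-fold under tod-PGCLC (edgeR adjusted p = 3.39e-07) and 2.92-fold under their parent tc;Sf1ESC (log2 fold change -1.55 ± 0.207, edgeR adjusted p = 0.000382). The clone was 2.11-fold above tcESC (log2 fold change 1.08 ± 0.200, edgeR adjusted p = 0.00669). Bmp4 alone of the 10 genes overlaps others, namely Gm15217 and Gm15222 on the opposite strand. The libraries were strand-specific, but whether strand was used in counting is not given in the sources used here.

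Bmp7 (ENSMUSG00000008999, chr2:172868012-172940321, minus strand), whose protein was also in the SCLC medium, measured 12.2 and 11.5 CPM in tcESC, 34.4 and 33.0 CPM in tc;Sf1ESC, 13.1 and 5.05 CPM in SCLC and 20.7 and 18.9 CPM in tod-PGCLC. The clone was highest, tod-PGCLC came next, and the SCLC libraries lay on both sides of tcESC. The rise from tcESC to the clone was 2.87-fold (log2 fold change 1.52 ± 0.351, edgeR adjusted p = 0.0159), and the fall from the clone to SCLC was 3.61-fold (log2 fold change -1.85 ± 0.358, edgeR adjusted p = 0.00252). SCLC and tcESC were not told apart (log2 fold change -0.33 ± 0.364, edgeR adjusted p = 0.438). The direction of that value rested on 1 library: it was -1.15 without SCLC replicate 1 and 0.20 without SCLC replicate 2. SCLC stood just past the fold limit under tod-PGCLC (log2 fold change -1.003 ± 0.328, edgeR adjusted p = 0.0226), and only 3 of 7 other settings called it. That call was lost when any 1 library other than SCLC replicate 1 was left out, with a log2 fold change of -0.46 without SCLC replicate 2 and of -1.82 without SCLC replicate 1. The Bmp2 to Bmp4 ratio in CPM was 11.6 and 13.8 in SCLC and 0.0628 to 0.288 in the other 6 libraries.

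Id1 (ENSMUSG00000042745, chr2:152736251-152737410, plus strand), a transcription inhibitor switched on by BMP-activated Smads, measured 5.47 and 7.59 CPM in tcESC, 4.36 and 4.41 CPM in tc;Sf1ESC, 23.1 and 35.4 CPM in SCLC and 8.28 and 11.8 CPM in tod-PGCLC. The groups did not overlap, and SCLC was highest. Id1 rose 6.91-fold from tc;Sf1ESC to SCLC (log2 fold change 2.79 ± 0.252, edgeR adjusted p = 4.97e-05). It was 3.20-fold higher in SCLC than in tod-PGCLC (edgeR adjusted p = 0.000322). The differences from tcESC were not called in tc;Sf1ESC (log2 fold change -0.57 ± 0.259, edgeR adjusted p = 0.139) or in tod-PGCLC (0.54 ± 0.261, edgeR adjusted p = 0.102).

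On the TPM scale, which divides reads by exon length and at which levels of different genes can be ranked, Tdgf1 led in tcESC with 1086 ± 8.77 TPM, in tc;Sf1ESC with 753 ± 4.41 TPM and in tod-PGCLC with 475 ± 188 TPM. In SCLC the highest level was that of Id1 with 96.0 ± 28.8 TPM, followed by Bmp2 with 35.4 ± 2.49 TPM and Tdgf1 with 34.0 ± 20.6 TPM, and the latter pair lay within their spread. The remaining SCLC levels, from Gdf3 with 13.6 ± 10.1 TPM down to Bmp4 with 4.42 ± 0.227 TPM and Inhba with 0.402 ± 0.191 TPM, mostly overlapped their neighbours. In the second place tcESC had Nodal with 198 ± 6.07 TPM close to Gdf3 with 188 ± 12.1 TPM, tc;Sf1ESC had Lefty2 with 345 ± 3.07 TPM, and tod-PGCLC had Lefty1 with 302 ± 31.4 TPM.

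When tc;Sf1ESC was compared with tcESC, 4 of the 9 members tested were called, all higher: Lefty1, Lefty2, Bmp4 and Bmp7. Of all 16481 genes tested, 11.7% were called, and 6.04% were called higher in the clone. These 4 calls were not equally firm. Without single libraries of the ES lines the log2 fold changes of Lefty1, Bmp4 and Bmp7 stayed between 0.87 and 2.56 but 1 or more of the 3 lost the call, with adjusted p values from 0.0519 to 0.144, and Lefty2 was called each time.

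From tc;Sf1ESC to SCLC all 9 tested members were called, 7 lower and 2 higher, against a background of 42.2% of genes, 24.1% up and 18.1% down. The 5 tested members of the Nodal branch all fell, with a median log2 fold change of -4.15 beside 0.02 for all genes tested. In the BMP branch, Bmp2 and Id1 rose and Bmp4 and Bmp7 fell. Against tcESC, which lacks the transgene, 6 of 9 members were called in SCLC (Nodal, Gdf3, Tdgf1 and Lefty2 lower, Bmp2 and Id1 higher), against a background of 42.7%, split into 24.3% up and 18.3% down. Without SCLC replicate 1 the count was 8, with Lefty1 and Bmp7 lower.

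In tod-PGCLC against tcESC, 6 of 9 members were called, 4 higher and 2 lower, against a background of 29.4% of 16707 genes, 18.1% up and 11.2% down. Nodal and Tdgf1 were lower, and Lefty1, Lefty2, Bmp2 and Bmp4 were higher. SCLC against tod-PGCLC gave calls for all 9 tested members, 7 lower and 2 higher in SCLC, against 38% of genes, 19.5% up and 18.5% down. With 1 library left out the count was 8 or 9, since the call of Bmp7 was mostly lost. Against tc;Sf1ESC, a comparison added after the data were seen, tod-PGCLC had 4 of 9 members called, all higher, against a background of 32.7% of genes: Bmp2 (log2 fold change 3.19), Bmp4 (2.28), Lefty1 (2.05) and Id1 (1.10, edgeR adjusted p = 0.00620). Several of these comparisons share libraries and are not independent of each other.

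**Figure D2:**
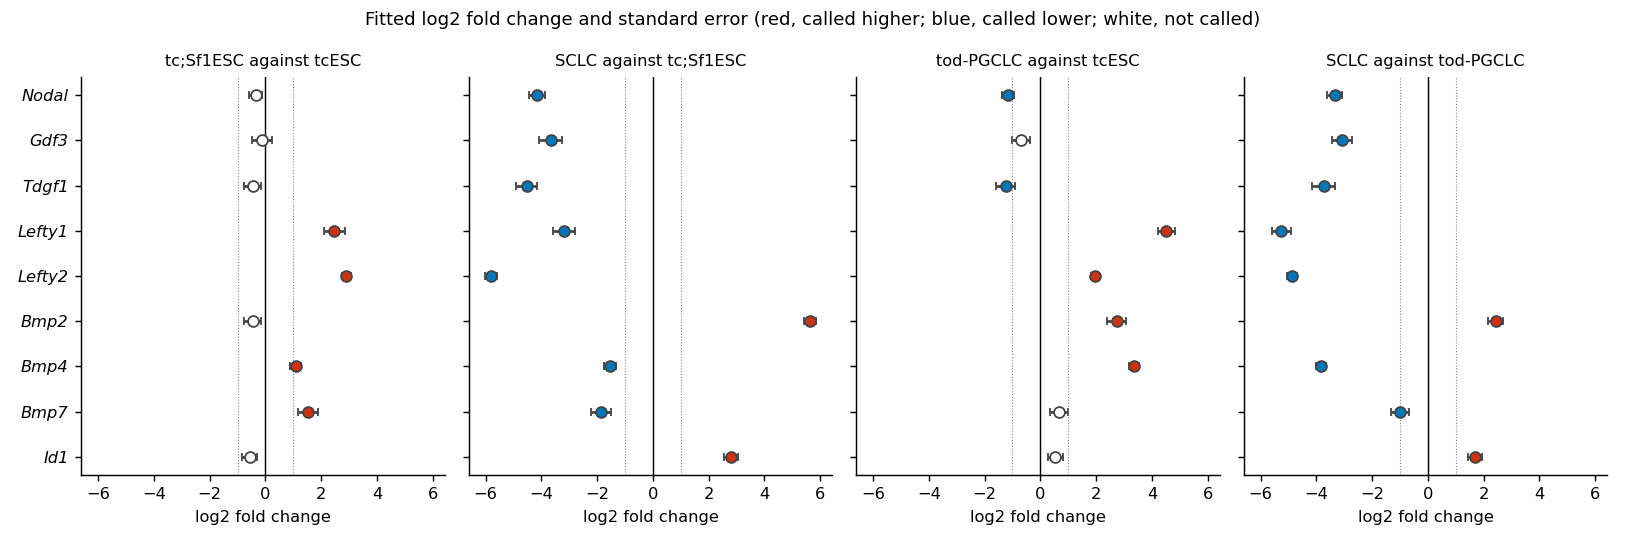
Fitted log2 fold changes (horizontal axes) of the 9 tested genes in 4 comparisons, with lines for the standard error and dotted lines at 2-fold; red is called higher, blue called lower and white not called. The 5 genes of the Nodal branch lie left of 0 in both comparisons of SCLC, and Bmp2 and Id1 lie right of it.

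The SCLC libraries differed from each other more than those of any other group, with an SD of 0.515 in the log2 ratio of replicates over genes against 0.309 to 0.380 elsewhere. Set against counting error alone, the chi-square per degree of freedom between replicates was 30.0 in SCLC, 9.80 in tod-PGCLC and 3.90 in tcESC. In tc;Sf1ESC it was 1.42, the nearest to counting error. The residual Nodal branch shared in the difference of the SCLC libraries. SCLC replicate 1 held 3.22 times the Gdf3 CPM of replicate 2, 3.12 times for Lefty1, 2.58 times for Bmp7, 2.52 times for Tdgf1, 2.38 times for Nodal and 1.77 times for Lefty2. The ratio was 1.08 for Bmp4, 0.912 for Bmp2 and 0.654 for Id1. Of the pluripotency markers, Nanog with a ratio of 3.26 and Sox2 with 2.89 were skewed the same way, whereas Klf4 with 0.997 and Dppa5a with 0.957 were level. Extraembryonic endoderm markers, with a summed 1739 and 3186 CPM, were skewed the other way, as Id1 was. The part of these other cells in the member levels was not tested. When any 1 library was left out, all 9 members were still called between tc;Sf1ESC and SCLC, with log2 fold changes of -4.87 to -3.64 for Nodal, -4.70 to -3.04 for Gdf3, -5.31 to -4.00 for Tdgf1, -4.20 to -2.58 for Lefty1, -6.24 to -5.44 for Lefty2, 5.26 to 6.03 for Bmp2, -1.62 to -1.496 for Bmp4, -2.67 to -1.32 for Bmp7 and 2.44 to 3.08 for Id1. Leaving out SCLC replicate 1 gave the steepest falls of Nodal, Gdf3, Tdgf1, Lefty1 and Bmp7.

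**Figure D3:**
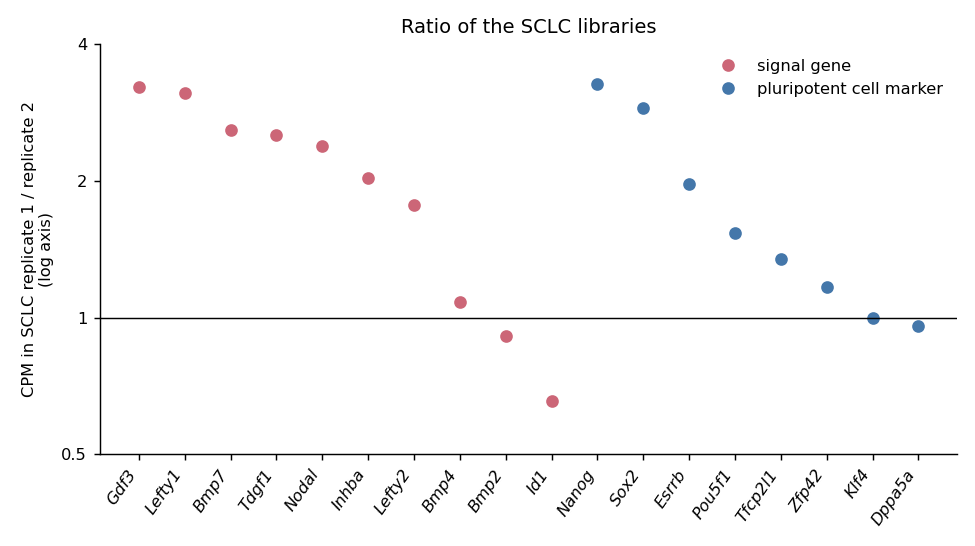
Ratio of CPM in SCLC replicate 1 to SCLC replicate 2 (vertical log axis) for the 10 genes in red and 8 pluripotency markers in blue, with a line at 1. Gdf3 at 3.22 and Nanog at 3.26 lead their sets, and Bmp2 at 0.912 and Id1 at 0.654 lie under the line.

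Other genes of the pathways were listed by role, 91 in all, of which 73 were tested among ES cells and SCLCs. Between the ES lines 6 of the 73 were higher and 10 lower, beside 6.04% and 5.62% of all genes tested. The inhibin and activin subunit Inhbb was 14.7-fold lower in the clone (edgeR adjusted p = 0.000737), and the antagonists Fstl1 and Nog, which bind activins or BMPs outside the cell, were 6.29-fold and 4.72-fold lower. Among target genes, T, which marks nascent mesoderm, was 6.43-fold higher. Eomes, a mesendoderm factor, was 3.52-fold lower and Cyp26a1, which degrades retinoic acid, 3.59-fold lower. Of the 11 BMP targets tested, 2 were higher and 3 lower. Msx1 was 6.17-fold and Id4 2.31-fold higher, and Id3, among the lower genes, was 2.08-fold lower. Gdf15, a stress-induced ligand, was 2.94-fold higher. Tested genes of chromosome 8, where Gdf15 lies, had a median log2 fold change of 0.47, and those of chromosome 16, where Fstl1 lies, of -0.46. None of 12 Smads and partners was called, and of 16 receptor genes tested 1 was, Tgfbr3, which was 3.05-fold lower (edgeR adjusted p = 0.000943) and is named after its values were seen. The log2 fold changes of Acvr2b, Bmpr1a, Fst, Id2, Smad6, Smad7 and Bmp8b lay between -0.77 and 0.27, without a call.

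From tc;Sf1ESC to SCLC, 30 of the 73 rose and 14 fell, with a median log2 fold change of 0.83, where 24.1% of all genes tested rose and 18.1% fell. The same shares are the background of the role lists that follow, and several lists lay near them. Genes near 0 in ES cells passed the limit on counts only through SCLC, so these counts and medians describe the genes tested and do not stand for the whole lists. Of 14 extracellular antagonists 9 were tested, 6 of them higher and none lower, and Bmper and Fstl3 were among those tested only for their SCLC reads. Nog, which sequesters BMPs, went from 4 and 4 counts to 358 and 209 (log2 fold change 6.12, edgeR adjusted p = 2.23e-05), the BMP-binding Bmper rose by 7.70 on the log2 scale, and Fst, the activin-binding follistatin, rose 3.68-fold. Fstl3 of the same family had 75 and 167 counts against 1 and 1, a ratio per total of 117 with an exact 95% interval of 31.9 to 969 for counting error, which came to 75.8 (20.3 to 638) without SCLC replicate 2. Bmp2 rose beside Nog and Bmper, whose products bind BMPs, while 3 of the 9 antagonists tested were not called. What these changes do together to BMP signalling was not tested.

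Of 16 receptors and coreceptors 5 were higher and 3 lower in SCLC. Those called included Tgfbr3 (19.3-fold higher), Tgfbr2 (18.5-fold higher), Bmpr2 (3.83-fold higher) and Eng (6.52-fold lower), named here after their values were seen, while Acvr2b and Bmpr1a rose by 0.72 and 0.73 on the log2 scale, under the fold limit. Of 12 Smads and partners, 3 were higher and 2 lower. Foxh1, the partner of Smad2 at Nodal targets, fell 6.67-fold (edgeR adjusted p = 0.000197). The inhibitory Smads, both of them feedback genes, were not called: Smad6 had a log2 fold change of 0.30 and Smad7 of -0.77.

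Target genes split. Among 8 tested Nodal and activin targets 3 were higher and 3 lower: Cyp26a1 (log2 fold change 10.04) and the endoderm factor Foxa2 (7.58) were 2 of the higher genes, and T (-5.80) and the organizer gene Gsc (-4.94) were 2 of the lower. Foxa2 and Cyp26a1 are also expressed in endoderm, whose markers were high in these libraries. The culture of these cells had also begun with the retinoic acid receptor agonist TTNPB. What either contributed to these levels was not tested. Among 11 tested BMP targets, 3 were higher and 2 lower. Id2 behaved like Id1, with 115 and 124 counts in tc;Sf1ESC and 597 and 958 in SCLC (log2 fold change 2.69, edgeR adjusted p = 2.86e-05). Id3, with 555 and 567 against 384 and 842 counts, overlapped between the groups (log2 fold change 0.11, edgeR adjusted p = 0.746), and Id4 fell 8.98-fold. Of the other ligands, Inhbb rose 10.7-fold from the clone to SCLC, Gdf15 fell 19.6-fold and Bmp8b was not called (log2 fold change 1.09).

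Compared with tcESC, SCLC had 28 of 73 genes higher and 13 lower, beside 24.3% and 18.3% of all genes tested. Inha, Cyp26a1, Bmper and Foxa2 were among those tested only for their SCLC reads, so these counts describe the genes tested and not the whole lists. Inha, the inhibin alpha subunit that Sertoli cells secrete, went from 5 and 5 counts to 210 and 270, a rise of 5.62 on the log2 scale. Cyp26a1 (294-fold), Bmper and Foxa2 (both 172-fold), Nog (14.7-fold), Id2 (3.78-fold) and Fst (2.79-fold) were higher as well. Gsc was 33.1-fold, T 8.65-fold and Gdf15 6.66-fold lower. Pcsk6, a convertase that matures Nodal, was 6.54-fold lower, Eng, a BMP coreceptor, 5.36-fold lower and Smad7 2.35-fold lower. Inhbb, which had fallen in the clone, overlapped between SCLC and tcESC (log2 fold change -0.46, edgeR adjusted p = 0.233), and Acvr2b, Bmpr1a, Bmp8b, Id3 and Smad6 were not called.

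**Figure D4:**
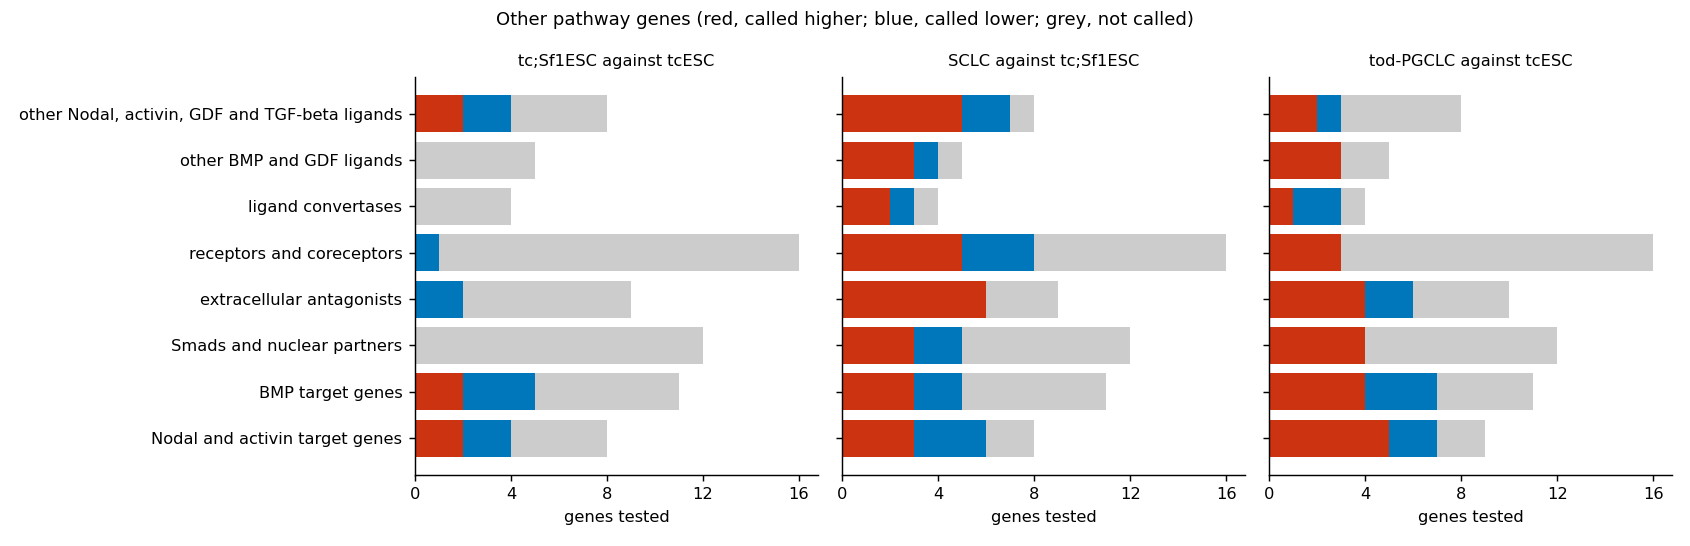
Number of tested genes (horizontal axes) in 8 role lists outside the 10 genes, split into called higher (red), called lower (blue) and not called (grey), for 3 comparisons. In SCLC against tc;Sf1ESC, 6 of the 9 antagonists tested are higher, beside 24.1% of all genes tested. Of these antagonists, Bmper and Fstl3 were tested only for their SCLC reads. In tc;Sf1ESC against tcESC none of 12 Smads and partners is called, beside 11.7% of all genes tested.

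In tod-PGCLC against tcESC, 26 of 75 tested pathway genes were higher and 10 lower, beside 18.1% and 11.2% of all genes tested. Cer1 and Lhx1 were tested only for their tod-PGCLC reads and are among those called higher, so the count describes the genes tested and not the whole list. Cer1, a secreted Nodal and BMP antagonist, had 73 and 337 counts in tod-PGCLC and 0 in both tcESC libraries. Against 3 counts per library that was at least 71.1-fold more, a bound that came to 24.6 without tod-PGCLC replicate 2. The organizer gene Lhx1 had 135 and 447 counts against 1 and 1, a ratio per total of 302 with an exact 95% interval of 83.2 to 2497 for counting error, which came to 137 (37.3 to 1147) without tod-PGCLC replicate 2. Replicate 2 of tod-PGCLC was the higher in both genes. The same held for T (286 and 716 counts), Foxa2 (75 and 190), Sox17 (92 and 282) and Cyp26a1 (200 and 847). Of the members, Bmp2 (130 and 234), Id1 (228 and 313) and Lefty1 (3711 and 4171) were higher there too. The other tested members were level or lower there, Tdgf1 the most (12034 and 6555). Extraembryonic endoderm markers, 10 genes, summed to 28.4 and 35.3 CPM in tod-PGCLC against 11.1 and 9.09 CPM in tcESC, with 6 of the 10 called higher and 1 lower, and their part in these levels was not tested. Cyp26a1 was 33.3-fold higher than in tcESC. Nog was 4.45-fold higher and Fst 3.26-fold lower. Tested genes of chromosome 11, where Nog and Lhx1 lie, had a median log2 fold change of 0.52. Bmp8b, a BMP of germ cell specification, had 64 and 80 counts against 12 and 20 (log2 fold change 2.15, edgeR adjusted p = 0.00170). Smad6 rose 2.48-fold and Smad7 was 2.34-fold lower, whereas Id2 and Id3 were not called (log2 fold changes -0.15 and -0.47), as Id1 was not. Smad9 had 63 and 33 counts against 3 and 3, a ratio per total of 16.6 with an exact 95% interval of 7.35 to 46.3 for counting error. Without tod-PGCLC replicate 1 that ratio came to 11.6 (4.81 to 33.9). The largest falls were those of Tbx3 (10.4-fold), a BMP target of naive ES cells, of the TGF-beta feedback gene Pmepa1 (6.15-fold), of Inhbb (5.29-fold) and of Pcsk6 (3.69-fold). Acvr2b and Bmpr1a were not called (log2 fold changes 0.73 and 0.17). Germ cell markers, 8 genes, summed to 836 and 839 CPM in tod-PGCLC against 346 and 372 CPM in tcESC. Trophectoderm markers, 6 genes, summed to 222 and 261 CPM against 97.0 and 100.3 CPM, with 2 of the 5 tested called higher and none lower. Tfap2c, which is also on the germ cell list, gave 185 and 221 CPM of the tod-PGCLC sums. Sertoli cell markers, 9 genes, summed to 120.2 and 146 CPM in tod-PGCLC against 17.2 and 20.1 CPM in tcESC. Dmrt1, which germ cells also express, gave 99.8 and 122 CPM of that, and Wt1 gave 12.1 and 11.03 CPM. Sox9 (2.47 and 4.97 CPM) and Gata4 (3.12 and 5.72 CPM) were lower, and Nr5a1 (0.218 and 0.188 CPM) and Cldn11 (0 and 0.0753 CPM) were near 0. Of 8 Sertoli markers tested, 4 were called higher than in tcESC. Interstitial and mesenchymal markers, 8 genes, summed to 40.9 and 43.0 CPM in tod-PGCLC against 13.4 and 14.0 CPM in tcESC, with 3 of the 6 tested called higher and none lower. Of these, Acta2, smooth muscle actin, had 11.4 and 12.8 CPM against 0.0394 and 0.0326 CPM. The part of somatic cells in the levels of Bmp2 and the other members was not tested.

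SCLC and tod-PGCLC differed in 27 pathway genes that were higher in SCLC and 16 that were lower, of 75, beside 19.5% and 18.5% of all genes tested. Tgfb3 was tested only for its SCLC reads, and Cer1 and Lhx1 only for their tod-PGCLC reads. The counts of calls therefore describe the genes tested and not the whole lists. Higher in SCLC were Bmper (log2 fold change 6.10), Tgfb3 (3.81), its receptor gene Tgfbr2 (3.74), Foxa2 (3.64) and Fst (3.18). Lower were Cer1, with 0 and 1 counts in SCLC against 73 and 337, T (-6.68), the BMP receptor gene Bmpr1b (-4.69), Lhx1 (-3.75) and Gsc (-3.67). Id2 (log2 fold change 2.07), Inhbb (1.94) and Nog (1.72) were higher in SCLC and Bmp8b was lower (-1.66), whereas Acvr2b, Bmpr1a, Id3, Smad6 and Smad7 were not called. Tested genes of chromosome 11, where Lhx1 and Nog lie, had a median log2 fold change of -0.53.

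Over the 8 libraries, the genes whose centred log2 CPM lay closest to Nodal, of 13044 protein-coding genes ranked, were 2410141K09Rik with a root mean square difference of 0.122, Gpa33 with 0.167 and Map1a with 0.188. Their group means ran parallel to Nodal, for Gpa33 162 CPM in tcESC, 139 CPM in tc;Sf1ESC, 8.23 CPM in SCLC and 104 CPM in tod-PGCLC. Closest to Bmp4 were Nphs1 with 0.397, Dner with 0.398 and Ccdc136 with 0.416, all farther from it than the named genes were from Nodal.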

How the data were processed

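Per the labels and the methods of the study, RNA was read as strand-specific, polyA-selected, paired-end libraries, trimmed with Trim Galore and aligned to GRCm38 with STAR. The submitters' processing notes also name STAR 2.4.0, Picard, HTSeq and DESeq2, without their roles or order. The deposited values are raw counts per gene and library, not normalised. The annotation release and the strand setting used in counting are not given in the sources used here. Summary lines that name no gene held 35.6 to 41.6% of reads and stayed out of totals and tests, with 20.5 to 27.5% of reads aligned at several places. Of 46078 gene identifiers, 45229 were named by GENCODE M21, which also gave positions and exon lengths.

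Counts were tested with edgeR 4.0.16 (quasi-likelihood, TMM, mean count above 10, Benjamini-Hochberg over all genes tested) in R 4.3.3. The 6 libraries of ES cells and SCLCs were fitted together for comparisons among them, and all 8 libraries for those with tod-PGCLC. Calls needed more than 2-fold change and an adjusted p under 0.05. CPM used library totals, and TPM used the length of joined exons. Bounds on a fold set the low group at 3 counts per library and cover counting error only. The script was tested on simulated counts. Pathway and marker genes were listed by role; those named are, in each comparison, the 5 that rose and the 5 that fell most of those called, averaging 1 CPM or more over the fit and not overlapping between groups, plus Acvr2b, Bmpr1a, Fst, Nog, Cer1, Smad6, Smad7, Id2, Id3, Inhbb and Bmp8b. A gene that this rule also names is not reported here. The members, lists and tests were chosen with earlier results of these data known. Alternatives were RLE factors, library totals, other count filters, other library sets, DESeq2 1.42.0, a replicate block and leaving out each library. The comparison of tod-PGCLC with tc;Sf1ESC was added after the data were seen. Where nothing but the labels calls libraries biological duplicates, p values measure the spread between those libraries, pooled over the groups of a fit.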

Additional observations from a re-analysis of the deposited data

How the results depend on the processing

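With 2 libraries per group, each comparison rested on few residual degrees of freedom, and 3 counts per library set the limit of detection. With all libraries of a comparison kept, the number of members called moved by at most 1 under any setting, through Bmp7 and Inhba. Bmp7 in SCLC against tod-PGCLC had a log2 fold change of -1.003 that came to -0.996 with RLE factors, -0.993 with every gene counted and -0.991 with DESeq2, all under the fold limit, and an adjusted p of 0.0776 with edgeR on the 4 libraries alone. Inhba, untested under the mean count limit, entered the fits with every gene counted or filterByExpr only through its SCLC reads, so the call it added there supports nothing. Leaving out 1 library mattered most between the ES lines: 1 to 4 members and 1119 to 2304 genes were called, where 4 and 1922 were called with all libraries. Bmp7 in SCLC against tcESC came to -1.15 without SCLC replicate 1 and reversed to 0.20 without SCLC replicate 2. Same-numbered libraries did not deviate together (correlations of -0.0261 to 0.0618 over genes), so the numbers pair nothing; with the replicate block 4, 9, 6, 6 and 9 members were called in the 5 comparisons, as without it. CPM on TMM sizes moved the group means of levels by -4.98% to 4.14%.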
